A study of Rattus norvegicus with 2 samples.

Results

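The SP1 peaks that lie on rat chromosome 10 are described here. They were taken from the peak list of an SP1 chromatin immunoprecipitation sequencing (ChIP-seq) experiment as all entries on that chromosome, and entries with the same start and end were joined into 1 interval. This gave 710 summits in 678 intervals, out of 7129 intervals in the whole list and against 6371 on the other 19 numbered chromosomes. Chromosome 10 was chosen by its number of intervals per Mb, the highest in the list, so the measured value that selected it was its density. That density, and every other measure of the same immunoprecipitate against the same input, is given as a description without a test.

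The experiment used left ventricular myocardium of male Sprague-Dawley rats, with the strain given as WT and the treatment as sham. The source is also labelled as primary cardiomyocytes from that tissue, so whole tissue and isolated cells cannot be told apart from the labels. Age and the number of animals are not given in the labels, whereas the study text places the assay in aged donor hearts. The series holds 1 immunoprecipitate (IP) made with anti-SP1 and 1 input library made without an antibody, and chromatin of both was crosslinked in 1% formaldehyde for 10 minutes. With 1 library in each group, no value below has a replicate check, and all confidence intervals cover counting error only, without that of the input library.

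SP1 (specificity protein 1) is a zinc finger transcription factor that binds GC-rich DNA, with the GC box (GGGCGG) as its classic site. It is expressed in most tissues, and its sites are common in the promoters of widely expressed genes, many of which lie in CpG islands. The study used the assay to examine SP1 at the promoter of *Cirbp*, which encodes a cold-inducible RNA-binding protein and is placed on chromosome 7 by the gene table used here, so chromosome 10 does not bear on that question.

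The genome build of the list is uncertain. The labels name Rnor_6.0, but 10 scaffolds in the list carry RefSeq names of the NW_ type, of a series that belongs to the later assembly mRatBN7.2, and the last interval on chromosome Y ends at 12140105. None of the 10 scaffold names was found in the gene table, which is of the assembly GRCr8. Accordingly, positions are given as deposited, counted from 1, and no interval was tied to a gene or to a part of one. The bases under the intervals were not analysed here for the same reason.

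Chromosome 10 carried 9.62% of the intervals of the numbered chromosomes on 4.37% of their length, where the length of each chromosome was counted up to its last interval. The density was 6.34 intervals per Mb (exact 95% Poisson interval 5.87 to 6.83), which was 2.33 times that of the other numbered chromosomes pooled (2.72 per Mb, 2.66 to 2.79). The chromosome next in density was 12, with 5.56 per Mb (4.90 to 6.28), so that the counting intervals of both overlapped. The SP1 intervals covered 277 kb of chromosome 10, or 0.259% of it, compared with 0.112% of the other numbered chromosomes.

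When the intervals were counted per gene rather than per Mb, the difference was smaller. The GRCr8 gene table lists 1788 protein-coding genes on chromosome 10, which is 8.08% of those on the numbered chromosomes. Only the chromosome of each gene was used, with no position. There were 37.9 SP1 intervals for every 100 protein-coding genes on chromosome 10 (35.1 to 40.9), compared with 31.3 (30.5 to 32.1) on the other numbered chromosomes, a ratio of 1.21. By this measure chromosome 12 (38.5, 34.0 to 43.5) and chromosome 20 (38.0, 33.4 to 43.1) had higher values than chromosome 10, within the counting error of all 3. These are counts of intervals and of genes, not of bound genes.

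**Figure D1:**
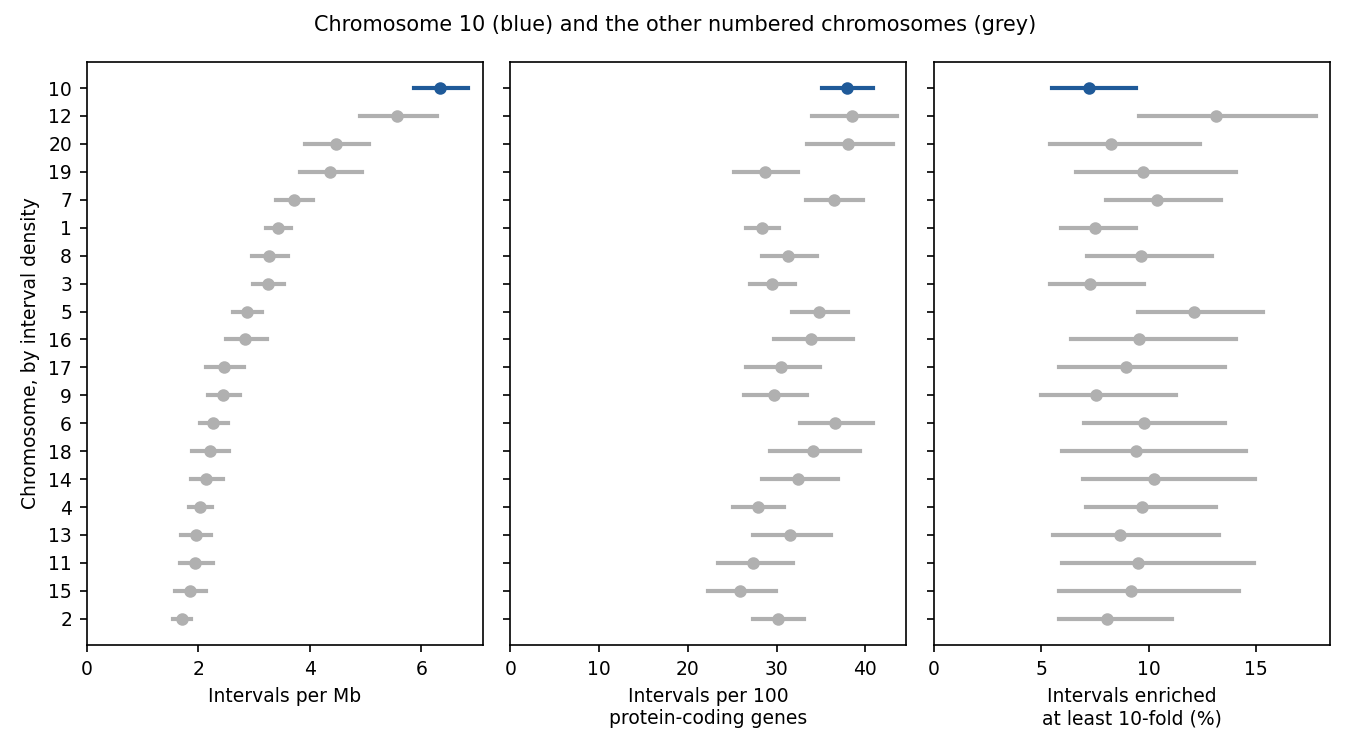
Interval density (intervals per Mb), intervals per 100 protein-coding genes, and the share of intervals enriched at least 10-fold (percent) for the 20 numbered chromosomes, ordered by density from top to bottom. Points are values of the 1 IP library and lines are 95% counting intervals, chromosome 10 is blue and the others are grey. Chromosome 10 lies first at 6.34 intervals per Mb, behind 2 others at 37.9 intervals per 100 genes, and last at 7.23% of intervals enriched at least 10-fold, where the whole list has 9.05%.

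The promoters of chromosome 10 also held the GC box somewhat more often. Among 2236 RefSeq promoter sequences on chromosome 10 in GRCr8 (250 bases before to 50 bases after each gene start), 860 contained GGGCGG on either strand, or 38.5% (Wilson 95% confidence interval 36.5% to 40.5%). On the other numbered chromosomes the share was 32.9% (32.4% to 33.4%), and among all 33469 promoters of the table it was 33.1%. Chromosome 10 ranked 3 of 20, and chromosome 5 had the highest share, 40.5%. For CCAAT, the box bound by the factor NF-Y, the share on chromosome 10 was 37.4% (35.5% to 39.5%) against 37.3% (36.8% to 37.9%), and for TGACGTCA, the cAMP response element, it was 2.15% (1.62% to 2.83%) against 1.81% (1.67% to 1.97%). A match is only a run of letters in a promoter of the reference assembly. Which of these promoters lie under an SP1 interval was not analysed here.

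Along the chromosome the intervals alternated between crowded and almost empty stretches. In 107 bins of 1 Mb, the median bin held 4 intervals (quartiles 1 and 10), whereas the median bin of the other numbered chromosomes held 1 (quartiles 0 and 4). Bins with 10 or more intervals numbered 31, or 29.0% of the bins (21.2% to 38.2%), against 5.87% (4.99% to 6.89%) elsewhere, and they held 447 of the 678 intervals, or 65.9%. Of the 169 such bins on all 20 numbered chromosomes, 18.3% were on chromosome 10. The share of empty bins was 16.8% (18 bins, 10.9% to 25.03%), compared with 36.2% (34.3% to 38.2%) on the others, and only chromosome 12 had a lower one (8.51%).

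The 5 fullest bins held 115 intervals, or 17.0% of those on chromosome 10. Without them the density of chromosome 10 was 5.52 intervals per Mb (5.07 to 6.0). The 11 fullest bins, or 10% of them, held 31.6% of the intervals, whereas on the other chromosomes pooled the fullest 10% of bins held 43.6%. This share was lower still on chromosomes 12 (27.0%) and 17 (31.1%).

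The fullest bin ran from 13 to 14 Mb and held 28 intervals (18.6 to 40.5), the fourth highest count of any bin on the numbered chromosomes. It was followed by the bin from 54 to 55 Mb with 26 intervals (17.0 to 38.1), the one from 101 to 102 Mb with 21 (13.0 to 32.1), and those from 14 to 15 Mb and from 105 to 106 Mb with 20 each (12.2 to 30.9). The counting intervals of these 5 bins overlap, so their order is not resolved. The median fold of the 5 bins ran from 5.28 to 6.03, beside 5.76 for the whole chromosome. Their highest folds were 16.4, 12.1, 9.80, 10.8 and 19.5, in the order given, and the bin from 101 to 102 Mb was the only one of the 5 without an interval enriched at least 10-fold.

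Crowded bins often stood side by side. The longest unbroken stretch of bins with 10 or more intervals was formed by the last 7 bins, from 100 to 107 Mb, which held 103 intervals, or 14.8 per Mb (12.1 to 17.9) up to the last interval. The 4 bins from 85 to 89 Mb held 58 intervals, as did the 3 bins from 13 to 16 Mb, and the 3 bins from 53 to 56 Mb held 52. By segments of 10 Mb, the density ran from 0.900 per Mb (0.412 to 1.71) between 20 and 30 Mb to 10.7 per Mb (8.77 to 12.9) between 80 and 90 Mb, with 9.90 per Mb (8.05 to 12.1) between 10 and 20 Mb.

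**Figure D2:**
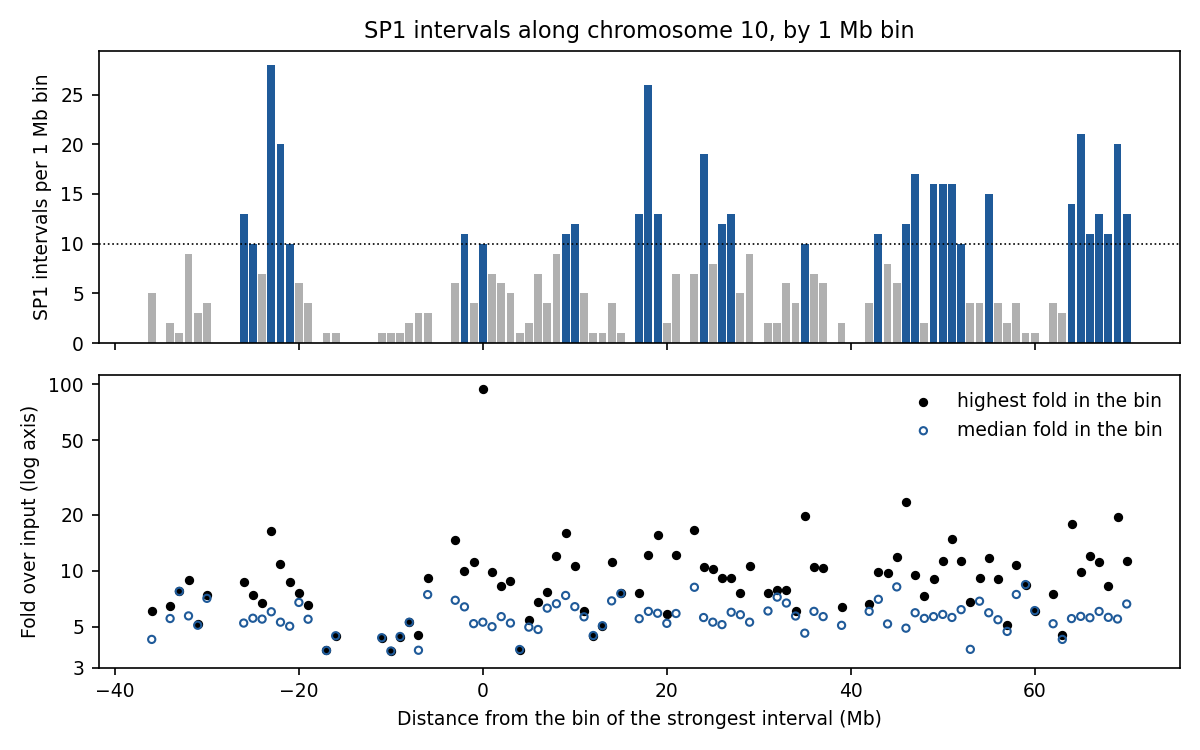
Upper panel, number of SP1 intervals in each 1 Mb bin of chromosome 10, plotted by distance in Mb from the bin that holds the strongest interval, with bins of 10 or more intervals in blue, the others in grey and a dotted line at 10. Lower panel, highest fold (black) and median fold (open blue) over input in each bin that holds an interval, on a log axis. Counts reach 28 in 1 bin and 0 in 18 bins, while the highest fold of 95.1 stands alone.

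The sparsest stretch lay between the crowded bins around 13 Mb and the strongest interval of the chromosome at 36 Mb. The 11 bins from 18 to 29 Mb held 7 intervals in all, and the 4 bins from 21 to 25 Mb held none. The longest gap between neighbouring intervals was found there, from 20229001 to 25120349, or 4.89 Mb. The next gaps were 3.77 Mb (75073638 to 78839001), 3.39 Mb (6947461 to 10336137), 2.75 Mb (30419000 to 33169430) and 2.63 Mb (96060830 to 98695638). Together these 5 gaps took up 16.3% of the length, and the 21 gaps over 1 Mb summed to 39.7 Mb. Gaps of this kind were shorter than on most chromosomes, since 16 of the other 19 had a longest gap above 4.89 Mb.

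Neighbouring intervals lay a median of 52.9 kb apart on chromosome 10 (quartiles 15.9 and 127 kb), the shortest median of the 20 chromosomes, compared with 96.2 kb (29.6 and 292 kb) between neighbours on the others. Of the 677 gaps, 18.5% were at most 10 kb, against 12.9% elsewhere, while 67.9% were at most 100 kb, against 51.0%. For gaps of at most 1 kb the shares were close, with 5.91% and 5.72%. As a result, 215 intervals, or 31.7% (28.3% to 35.3%), had another interval within 10 kb, compared with 22.8% (21.8% to 23.9%) on the other numbered chromosomes and 30.9% on chromosome 16, the next highest. More intervals per Mb shorten the mean gap by that fact alone, so the gaps are not independent of the density. The median gap and the share with a neighbour did not follow the density strictly. Chromosome 12, with 5.56 intervals per Mb, had 70.2 kb and 22.8%. Chromosome 7, with 3.72 per Mb, had 54.3 kb and 28.8%. How far the density accounts for the gaps of chromosome 10 was not tested.

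**Figure D3:**
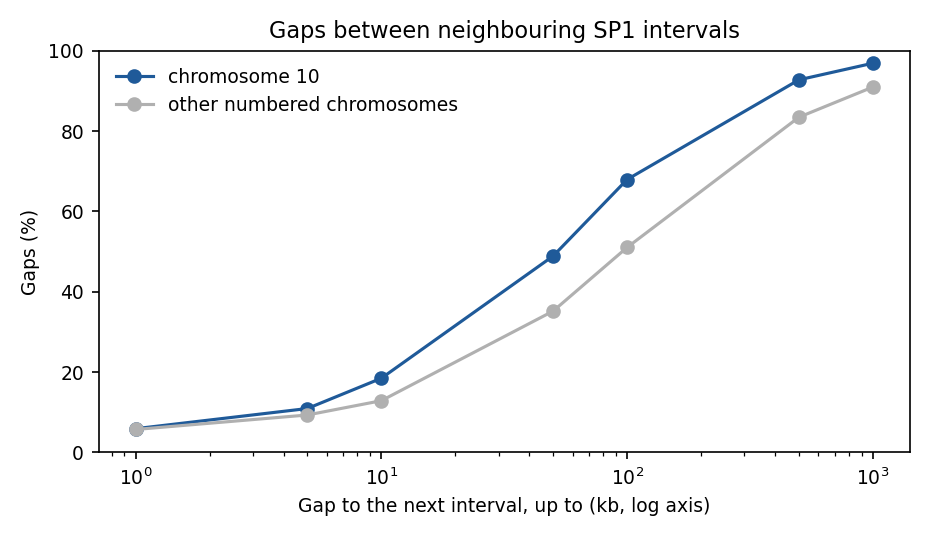
Cumulative share of gaps between neighbouring SP1 intervals (percent) by gap length in kb on a log axis, for the 677 gaps of chromosome 10 in blue and the 6352 gaps of the other numbered chromosomes in grey. The lines start together, 5.91% and 5.72% at 1 kb, and are farthest apart at 100 kb, with 67.9% and 51.0%.

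The close neighbours were mostly pairs. Joining intervals with gaps of at most 10 kb gave 90 runs, of which 66 were pairs, 15 had 3 intervals, 7 had 4 and 2 had 5. No run on chromosome 10 was longer, whereas runs of up to 13 intervals were found on the other chromosomes. The first of the runs of 5, chr10:54703779-54723588, spanned 19.8 kb inside the second fullest bin. Its intervals had folds of 9.03, 5.28, 6.03, 6.03 and 10.3, from 11, 6, 7, 7 and 14 tags in that order, and the last 4 lay within 10 kb. The other, chr10:60015381-60031515, spanned 16.1 kb with folds from 5.02 to 6.34 and 6 to 8 tags, and was thus made of weak intervals throughout. The first of the runs of 4 by position, chr10:13479432-13504113, spanned 24.7 kb in the fullest bin and had folds of 3.91, 3.77, 5.93 and 7.05.

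Isolated intervals were few. Only 14, or 2.06%, had no other interval within 500 kb, compared with 4.94% elsewhere. Apart from the one at the start of the chromosome described below, they rested on 4 to 11 tags with a median fold of 4.48. None of the 14 was enriched at least 10-fold (0% to 21.5%). That counting interval encloses the 6.98% of such intervals elsewhere and the 9.05% of the whole list. The intervals on either side of the longest gap, chr10:20228702-20229000 and chr10:25120350-25120606, rested on 5 tags each, with folds of 4.46 and 4.36. The strongest isolated interval was chr10:95309085-95309292, with 11 tags and a fold of 8.41 (4.55 to 14.5).

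The folds of the intervals were low and rested on few reads. The fold is the IP signal at a summit over the signal expected from input, with 1 added to both. Each interval is represented by its best summit. Where less than 1 tag is expected, the added 1 lowers the fold below the plain ratio of tags. The strongest interval, of fold 95.1, had 344 times its expected tags. The median fold was 5.76 (quartiles 4.52 and 7.05), compared with 5.97 (4.71 and 7.54) on the other numbered chromosomes, and 18 of the 19 others had a higher median. The number of tags (reads or read pairs counted once by the peak caller) at each summit was recovered from its fold and p value. The median was 7 tags on chromosome 10 (quartiles 5 and 9) and 7 on the others (6 and 9). Intervals with 7 tags or fewer made up 58.8% (55.1% to 62.5%), compared with 54.4% (53.1% to 55.6%). At the genome-wide expectation of 0.326 tags, 7 tags give a fold of 6.03 with an exact Poisson interval from 2.88 to 11.6, and for 92.8% of the intervals the counting interval of the fold enclosed the median of the chromosome. Most intervals could therefore not be ranked against one another.

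**Figure D4:**
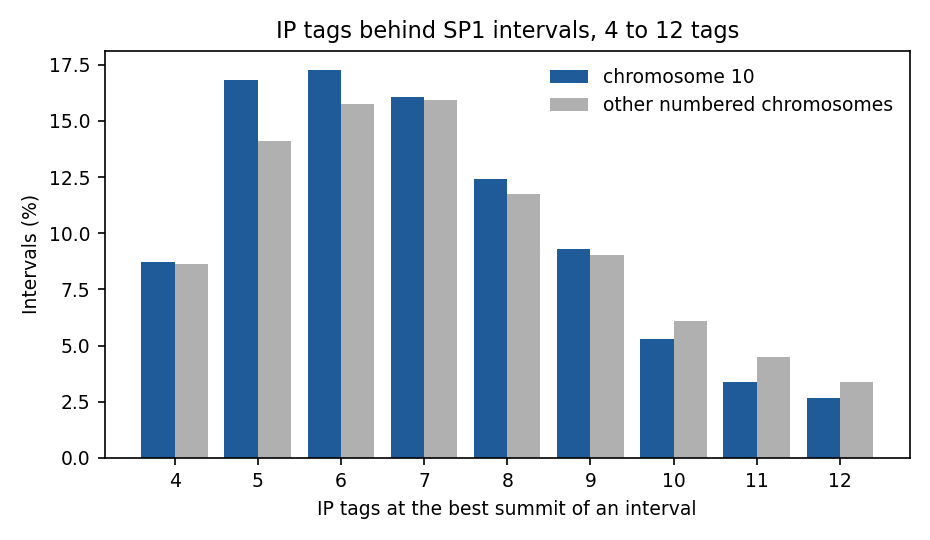
Share of intervals (percent) by the number of IP tags at the best summit, from 4 to 12 tags, for chromosome 10 in blue and the other numbered chromosomes in grey. At 5 tags the shares were 16.8% and 14.1%, at 7 tags 16.1% and 15.9%, and at 12 tags 2.65% and 3.39%.

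Strong intervals were not more frequent on chromosome 10 in proportion to its intervals. In the whole list 9.05% of intervals were enriched at least 10-fold. On chromosome 10 there were 49 of them, or 7.23% (5.51% to 9.43%), compared with 9.23% (8.54% to 9.96%) on the other numbered chromosomes, and this was the lowest share of the 20. Its counting interval overlapped that of the others pooled and that of every chromosome except 5 (9.48% to 15.3%) and 12 (9.55% to 17.8%). Chromosome 3 had nearly the same share, 7.29% (5.40% to 9.77%), so the last place is not resolved. A −log10 q of at least 10 was reached by 15.0% of the whole list and by 79 intervals of chromosome 10, or 11.7% (9.45% to 14.3%), against 15.3% (14.4% to 16.2%), again the lowest of the 20. Here the counting intervals of chromosome 10 and of the others pooled did not overlap. That of chromosome 2 (12.6%, 9.75% to 16.1%) did overlap, so this last place is not resolved either. A −log10 q of at least 5 was reached by 43.3% of the list and by 39.1% (35.5% to 42.8%) on chromosome 10, and a fold of at least 5 by 70.0% and 68.4% (64.8% to 71.8%). The place of chromosome 10 in the order by density differed between thresholds. With a fold of at least 5 it was first, with 4.34 intervals per Mb (3.95 to 4.75) against 4.06 (3.50 to 4.68) on chromosome 12. With a −log10 q of at least 10, chromosome 12 had 1.1 intervals per Mb (0.815 to 1.44) and chromosome 10 was second with 0.739 (0.585 to 0.920). With a −log10 q of at least 5 chromosome 10 was second as well, with 2.48 (2.19 to 2.79) against 2.75 (2.29 to 3.27). It was also second with a fold of at least 10, with 0.458 (0.339 to 0.606) against 0.730 (0.506 to 1.02).

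The 49 intervals enriched at least 10-fold were scattered over 31 bins. The bin from 45 to 46 Mb held 4 of them, more than any other. Of the 49, 35 lay in bins with 10 or more intervals, or 71.4% (57.6% to 82.2%), about the share of all intervals that lay in such bins (65.9%). By the crowding of the bin, the share enriched at least 10-fold was 7.83% (5.68% to 10.7%) in bins of 10 or more intervals, 7.80% (4.41% to 13.4%) in bins of 5 to 9 and 3.33% (1.14% to 9.35%, 3 of 90 intervals) in bins of 1 to 4. On the other numbered chromosomes bins of 1 to 4 intervals had a share of 8.68% (7.57% to 9.93%), and bins of 10 or more had 8.80% (7.64% to 10.1%). The median fold in the 3 classes of chromosome 10 was 5.77, 5.88 and 5.28, from the most to the least crowded.

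The 1 interval that stood apart was chr10:36262750-36263557. It was 808 bp wide with a single summit at 36263183, 130 IP tags and an expectation of 1.16 times the genome-wide one, which gave a fold of 95.1 (79.6 to 113). This was 4.07 times the fold of the next interval on the chromosome and the second highest fold in the whole list. Its surroundings were ordinary. The closest interval, chr10:36266784-36267241, began 3.23 kb farther on with 7 tags and a fold of 6.03, and the others within 100 kb had folds of 4.52 and 7.54. Whether the 130 tags are distinct fragments cannot be read from a peak list.

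The second interval, chr10:82174470-82175356, had 2 summits, 30 tags and a fold of 23.4 (16.0 to 33.0). These 2 intervals were the only ones enriched at least 20-fold, or 0.295% of the chromosome's intervals against 0.477% of the whole list. The third was chr10:71573121-71574278, with 27 tags and a fold of 19.7 (13.2 to 28.3). The next pair lay between 105 and 106 Mb, at chr10:105652117-105653047 with 19.5-fold (12.9 to 28.4) and at chr10:105951980-105952748 with 18.6-fold (12.4 to 26.9). The remaining 5 of the 10 highest, which started at 100426987, 59786522, 13104787, 45407414 and 55111797, had 20 to 23 tags and folds from 17.8 down to 15.6. Apart from the first, the counting intervals overlapped, so their order is not resolved. All 10 except the one at 59786522 lay in bins of 10 or more intervals. Such bins held 65.9% of all chromosome 10 intervals and 71.4% of the 49 enriched at least 10-fold. Of the 10, 3 had 2 summits, against 4.72% of all intervals. Their median width was 789 bp, against 357 bp for all. Width and fold come from the same pileup of tags, so they are not independent measures.

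At the other end, the 3 intervals with the weakest q values were chr10:37910240-37910609, chr10:102478603-102478970 and chr10:46096645-46096869. Each rested on 4 tags, with folds of 3.53, 3.53 and 3.54 and counting intervals from about 1.48 to 7.97, and a q value of 0.0454 for the first. All 3 lay within 4 kb of another interval (0.384, 1.12 and 3.58 kb), so weak intervals were not always the isolated ones. A summit at the genome-wide expectation needs 4 tags to be listed, and sites below that level cannot be seen in this list.

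Interval width on chromosome 10 was that of the other chromosomes. The median was 357 bp (quartiles 251 and 510 bp, range 192 to 1191 bp), against 353 bp (249 and 508 bp) on the others, and it ranked 10 of 20. The widest interval, chr10:69742422-69743612, spanned 1191 bp and had 2 summits with a best fold of 7.87. Only 3 of the other chromosomes had a narrower widest interval. The narrowest 25.1% of the intervals had a median of 6 tags and the widest 25.4% a median of 8, and the share enriched at least 10-fold was 1.18% and 15.7%. The best summit lay at a median of 47.8% of the width from the start (quartiles 32.5% and 61.6%), close to the 47.9% of the other chromosomes (33.0% and 62.2%). Both medians were near the middle, slightly toward the start, and a lean to either side was not tested.

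Several summits were found in 32 intervals, or 4.72% (3.36% to 6.59%), compared with 5.01% (4.50% to 5.57%) on the other numbered chromosomes. All 32 had 2 summits. Intervals with 3 or more were not seen on chromosome 10, nor on chromosomes 11, 17 and 18, while the other numbered chromosomes had 33 in all, or 0.518% (0.369% to 0.727%). The Wilson interval of 0 of 678 reaches 0.563%, which is above the 0.518% of the others. By another limit for a count of 0, 3 counts of 678, it reaches 0.442%, which is below that share. Whether chromosome 10 differs is therefore not resolved. Summits of the same interval were a median of 336 bp apart (quartiles 258 and 452 bp, range 153 to 781 bp), against 334 bp elsewhere. The stronger of both summits had a median of 10 tags and the weaker one a median of 8, with folds of 8.19 and 6.64. Intervals with 2 summits were wider (median 763 bp against 342 bp for a single summit) and had a higher best fold (8.19 against 5.65). The best fold is that of the better summit, and the weaker summits had a median of 6.64. How far this choice accounts for the difference was not tested.

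The input under the intervals was also like that of the other chromosomes. The median expectation was 1.09-fold the genome-wide value (others 1.11) and was equal to that value, which is its lower limit, in 29.5% of intervals (26.2% to 33.0%), against 30.5% (29.3% to 31.6%). The 200 intervals at that value had a median fold of 6.03, and 6.50% of them (3.84% to 10.8%) were enriched at least 10-fold, compared with 9.48% (8.26% to 10.9%) of such intervals elsewhere. Where local input raised the expectation, the share was 7.53% (5.49% to 10.3%) on chromosome 10 and 9.12% (8.31% to 10.0%) elsewhere. The counting intervals overlapped in both cases.

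High input was found at 1 place. The first interval of the chromosome, chr10:20020-20219, had 152 IP tags, the most of any interval on chromosome 10, but 43.6 expected from input, or 134 times the genome-wide expectation. Its fold was only 3.43 (2.91 to 4.02), the lowest on the chromosome, and in 200 bp it was among the narrowest. With so many expected tags the added 1 hardly matters, as the plain ratio of tags was 3.48. This fold is therefore not directly comparable with those of the other intervals. It lay 635 kb from the next interval. The next highest input, 2.62 times the genome-wide level, was shared by several intervals. Those that start at 13494755, 37589267, 14032263 and 53714705 had 8 or 10 tags and folds of 4.85 or 5.93. Others shared that level, among them chr10:55146404-55146981 with 15 tags and a fold of 8.62. Hence 0.147% of the intervals of chromosome 10 (1 interval, 0.0260% to 0.831%) lay over input raised 5 times or more. On the other numbered chromosomes it was 0.644%, inside that counting interval, and 8 of the 19 had a lower share than chromosome 10.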

How the data were processed

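Chromatin from 1 IP and 1 input library (15 PCR cycles, paired-end reads of 150 bases, per the labels) was processed by the authors. The submitters' processing notes name fastp 0.20.0, Bowtie2 2.2.6, SAMtools 1.10, MACS2 2.2.7.1 and the build Rnor_6.0. Settings are not given in the sources used here. The deposited list gives the fold enrichment as a linear ratio, the p-value and q-value as −log10 values, and a score, which the authors' caller wrote as 10 times the −log10 q without decimals. Positions were deposited in bp counted from 0.

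The analysis used Python 3.11.15, numpy 2.4.6, pandas 2.3.3, scipy 1.17.1 and matplotlib 3.10.9. Tags were recovered by trying whole counts below 3000, with fold taken as (tags + 1)/(expected + 1) and p as the Poisson tail, within 0.0002 in −log10 p. Exactly 1 count matched at all 710 chromosome 10 summits. In a test on 1997 peaks simulated with the same formulas, 100% were recovered. That test checks the search for the count and cannot show that the caller used these formulas. These formulas are not stated in the sources used here, and the depth of each library is otherwise unknown, which limits the precision of every fold. Intervals were placed in bins by their midpoint. Shares have Wilson 95% intervals, counts exact Poisson ones. The interval of a fold carries the Poisson error of the IP tags only, with the expectation from input taken as known. Regions were named by rank (fold, input, weakest q, fullest bins, longest gaps, largest runs), and intervals with 3 or more summits were to be named, of which there were none. The intervals beside the longest gap, the strongest isolated interval, the widest interval, chr10:55146404-55146981 and the densest stretches were named after their values were seen. The members and lists were chosen with earlier results of these data known. No test between groups was made. Alternatives were stricter thresholds, other bins, distances and lengths, and single summits. Gene starts and motifs under the intervals were not analysed here, since no sequence or annotation of the build of the list was used.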

Additional observations from a re-analysis of the deposited data

How the results depend on the processing

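Stricter thresholds moved nearly every value for chromosome 10. With a −log10 q of at least 5, a −log10 q of at least 10 and a fold of at least 5, in that order, the density was 2.48, 0.739 and 4.34 per Mb, the median width 454, 511 and 420 bp, and the share with several summits 11.3%, 16.5% and 6.90%. The median fold was 7.54, 10.5 and 6.56, the share enriched at least 10-fold 18.5%, 62.0% and 10.6%, and the median tags 9, 14 and 8. Empty bins made up 32.7%, 57.9% and 25.2%, and intervals with a neighbour 14.7%, 2.53% and 23.9%. The number of intervals fell to 265 and 79 under the q thresholds. These thresholds remove summits of few tags by construction.

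Bins of 0.5 and 2 Mb left 32.2% and 5.56% empty, and distances of 5 and 20 kb gave 20.6% and 46.3% of intervals with a neighbour. Among alternatives chosen after seeing the data, leaving out the 5 fullest bins gave 5.52 per Mb and 27.4% with a neighbour, and the genome-wide expectation alone a median fold of 6.03. The other 10 of 43 alternatives kept the value within its counting interval or, for a count, within 1.5 times. The share of intervals at gene starts and the share with GGGCGG were not run. No replicate could be left out. No paired analysis was possible because there was only 1 library per group.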
